A study of Mus musculus with 9 samples.

Results

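The genes described here encode the initiation and elongation factors of translation, with the kinases, binding proteins and methyltransferases named after them. They are all protein-coding genes whose mouse symbol starts with Eif or Eef, which gave 68 of the 21697 protein-coding genes and of the 47729 gene identifiers in the tables; 8 more symbols of this kind are not protein coding. By role they are 44 initiation factors, 10 elongation factors, 5 kinases, 4 binding proteins, 4 methyltransferases and Eif1ad, which was put in no role. They were read in RNA precipitated with tagged ribosomes from C57BL/6 mice, dissected as dorsal striatum on postnatal day 28. In this method, called RiboTag (RT), a ribosomal protein gains a hemagglutinin tag in cells with Cre recombinase, and polyribosomes carrying the tag are pulled down with beads. Cre was driven here by the D1 dopamine receptor gene, which targets the D1 medium spiny neurons of the direct pathway and acts only in cells that use that gene. The study formed 3 groups of 3 libraries each. In the stereotypy group, D1-Cre-flTrkB-RT mice carried floxed TrkB (gene Ntrk2), the receptor for brain-derived neurotrophic factor, and showed spontaneous repetitive behavior. The no stereotypy group had that same genotype without the behavior. Control mice were D1-Cre-RT mice, so Cre and the tagged ribosome were present in all 3 groups. The labels call the libraries of a group biological triplicates, give no sex and no batch, and do not say whether animals were pooled.

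A ribosome begins translation when the initiator tRNA, carried by eIF2 bound to GTP, joins the small subunit with eIF1, eIF1A, eIF3 and eIF5, while the eIF4 factors bind the cap of the mRNA and unwind its leader. eIF2B recharges eIF2 with GTP, and kinases that phosphorylate eIF2 block that exchange and lower initiation. During elongation eEF1A delivers each aminoacyl-tRNA, the eEF1B subunits recharge it, and eEF2 moves the ribosome along, a step that the kinase eEF2K inhibits. In neurons these steps are known as points at which growth factor receptors and synaptic activity adjust protein synthesis, in part through the mTOR pathway and the eIF4E-binding proteins.

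Levels are in CPM, the reads of a gene scaled to a fixed library total, and the libraries held 27103152 to 40578512 reads. Of the 68 genes, 63 reached 1 CPM in at least 3 libraries and were tested. The other 5 were Eif4ebp1, Eif4ebp3, Eif2ak2, Eef1akmt3 and Eif4e1b, and the last was at 0 reads in all 9 libraries, which allows up to 0.111 CPM (3 reads, counting error only). The deleted gene Ntrk2 was at 34.3, 43.9 and 40.7 CPM in stereotypy libraries, at 23.4, 14.1 and 19.2 CPM in no stereotypy libraries and at 319, 385 and 487 CPM in control libraries. Replicate 3 of both TrkB-deleted groups stood apart from the rest in genes of the sex chromosomes. Xist, the RNA that silences an X chromosome in females, was at 109 CPM in stereotypy library 3 and at 17.9 CPM in no stereotypy library 3, against 0.0849 to 0.123 CPM in control libraries. The Y-linked helicase gene Ddx3y was at 0.96 and 5.03 CPM in that pair of libraries, against 64.9 to 78.8 CPM in control libraries. Calls below are therefore also given without that pair. D1 neuron markers summed to 2239 to 2295 CPM in stereotypy libraries, 1514 to 1873 CPM in no stereotypy libraries and 1797 to 2430 CPM in control libraries, so they were detected throughout. Markers of other cells were present too, and only Agt (astrocytes), Acta2 and Myl9 (vascular cells) were at 0, each in 1 library. The 12 astrocyte markers summed to 636 to 665 CPM with stereotypy, 447 to 559 CPM without it and 451 to 556 CPM in controls. The 6 markers of cortical excitatory neurons summed to 156 to 281 CPM with stereotypy, 579 to 1423 CPM without it and 271 to 848 CPM in controls, and the 6 D2 neuron markers to 259 to 425, 598 to 1052 and 444 to 1434 CPM in the same order. In bulk precipitates, fewer cells of a type and less RNA per cell cannot be told apart.

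Together the 68 genes held 9675 to 10128 CPM in stereotypy libraries, 10299 to 11008 CPM in no stereotypy libraries and 8790 to 9691 CPM in control libraries. The sums of the TrkB-deleted libraries without stereotypy did not overlap those of either other group. Levels divided by exon length spread over several orders of magnitude. Eef1a2, the form of eEF1A that neurons and muscle use in adulthood, was highest, with a mean of 1039 CPM per kb over the 9 libraries. Its paralog Eef1a1, which most other cells use, followed at 342 CPM per kb, and Eef2, the translocase, at 304 CPM per kb. Among initiation factors the helicase gene Eif4a2 was highest at 149 CPM per kb, followed by Eif4h, which stimulates that helicase, at 114 CPM per kb. This order uses levels as listed and leaves out reads listed under pseudogene copies, such as that of Eif4a1 described below. Eif5a, whose product helps ribosomes through difficult stretches such as runs of proline, was at 93.1 CPM per kb. The members differed little between replicates: the median standard deviation within groups was 0.14 on the log2(CPM + 1) scale, against 0.18 over all genes tested.

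**Figure D1:**
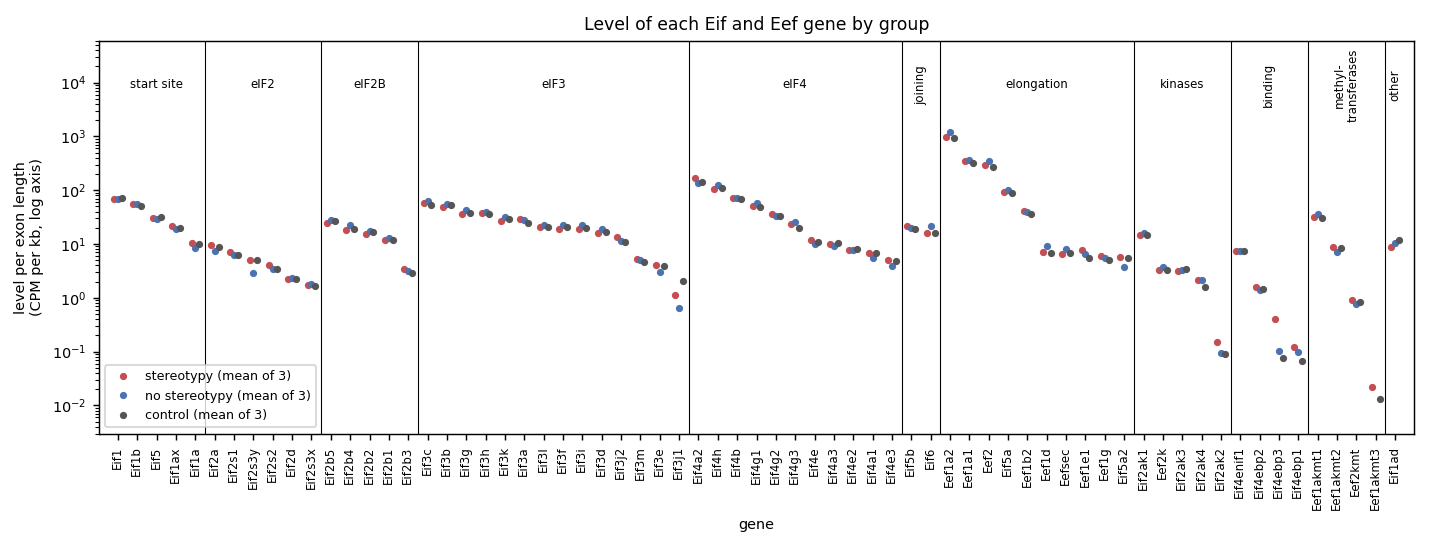
Level of each Eif and Eef gene in CPM per kb of exon (log axis), ordered by role and by level, with 1 point for the mean of the 3 libraries of each group; a group mean of 0 is not drawn. The elongation factors Eef1a2, Eef1a1 and Eef2 lie at 1039, 342 and 304 CPM per kb over all libraries, above every initiation factor, and the untested genes lie below 1 CPM per kb. Levels are as listed, without reads listed under pseudogene copies.

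Reads of several members cannot be assigned with certainty, because other genes carry the same sequence. In the longest protein-coding transcript of each member (GENCODE M21), 34 of 68 members shared more than 5% of their 50-base words with transcripts of another gene, and 6 shared more than 50%. The helicase gene Eif4a1 shared 65.3%, mostly with the processed pseudogene Eif4a-ps4, whose listed level was 324 CPM on average, against 27.4 CPM for Eif4a1. Coding bases 301 to 360 (GRCm38 transcripts, 5′ to 3′) are shown for this pair and for 2 pairs of paralogs on which results below turn, with bases that differ within a pair in capitals.
Eif4a1 (chromosome 11, minus strand): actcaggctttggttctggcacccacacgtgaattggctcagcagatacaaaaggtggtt
Eif4a-ps4 (chromosome 1, plus strand): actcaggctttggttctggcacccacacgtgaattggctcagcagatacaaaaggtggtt
Eif2s3x (chromosome X, minus strand): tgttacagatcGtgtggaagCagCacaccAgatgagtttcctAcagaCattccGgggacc
Eif2s3y (chromosome Y, plus strand): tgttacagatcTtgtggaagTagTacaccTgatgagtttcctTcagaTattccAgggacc
Eef1a1 (chromosome 9, minus strand): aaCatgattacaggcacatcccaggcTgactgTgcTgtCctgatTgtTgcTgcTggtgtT
Eef1a2 (chromosome 2, minus strand): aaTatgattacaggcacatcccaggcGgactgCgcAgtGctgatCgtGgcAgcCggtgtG
Within this stretch Eif4a1 and its pseudogene were identical, and over the whole coding sequence they matched at 1217 of 1218 bases (99.9%). Eif2s3x and Eif2s3y differed at 7 of the 60 bases and matched at 86.4% of their aligned coding bases, and Eef1a1 and Eef1a2 differed at 10 of 60 and matched at 80.7%. The sequence of this stretch therefore cannot tell Eif4a1 from its pseudogene, and it does tell the paralogs apart.

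Between stereotypy and control mice no member passed the test, which was limma on log2(CPM + 1) over all 13695 genes with Benjamini-Hochberg adjustment and a threshold of 0.05. In that comparison 5.1% of all genes were called, and edgeR called 0 members and DESeq2 called 2, Eef1e1 and Eif1ad. Of all 13695 genes edgeR called 643 and DESeq2 1522. At an unadjusted p under 0.05, limma gave 6 of 63 members (9.52%), against 24.0% of all genes. The median change of the members was 0.06 on the log2 scale, against 0.05 over all genes, and 56 of 63 changes were smaller than 0.25 in size. The groups' libraries did not overlap for 11 members (17.5%, against 27.7% of all genes). The largest positive difference among the members was that of Eef1e1, whose product belongs to the complex that holds aminoacyl-tRNA synthetases together. It was at 25.6, 24.0 and 26.6 CPM in stereotypy libraries, at 21.2, 20.2 and 21.2 CPM in no stereotypy libraries and at 19.7, 12.9 and 20.1 CPM in control libraries. Its 3 groups did not overlap, and the difference between stereotypy and control was 0.53 ± 0.15 on the log2 scale (SE, limma adjusted p = 0.070). Eif1ad, a nuclear protein with an eIF1A-like domain, was at 26.5, 24.8 and 22.7 CPM with stereotypy against 30.1, 39.1 and 29.4 CPM in controls, a log2 difference of -0.39 ± 0.13 (SE, limma adjusted p = 0.11).

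Between mice without stereotypy and controls, 2 of 63 members passed (3.17%, against 6.77% of all genes), both higher, as were 3.76% of all genes. These were Eef1d and Eif4g3. By edgeR 1 member passed, Eef1d, and by DESeq2 7, against 904 and 1509 of all 13695 genes. At an unadjusted p under 0.05 limma gave 15 members (23.8%), against 22.5% of all genes. The members' median change was 0.09 on the log2 scale against 0.03 over all genes, and the libraries of the groups did not overlap for 25 members (39.7%, against 25.5% of all genes). Of these 18 were higher and 7 lower, against 14.9% and 10.6% of all genes.

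Eef1d encodes eEF1Bδ, a subunit of the exchange factor that recharges eEF1A. It lies on chromosome 15 from 75894205 to 75909556 (minus strand, GRCm38) and overlaps Naprt. Its level was 46.8, 45.1 and 43.9 CPM in stereotypy libraries, 62.9, 59.5 and 56.4 CPM in no stereotypy libraries and 41.1, 41.4 and 49.2 CPM in control libraries. Each library without stereotypy was above all 6 others, and the other two groups overlapped. The log2 difference from control was 0.43 ± 0.10 without stereotypy (SE, limma adjusted p = 0.025) and 0.05 ± 0.10 with it (adjusted p = 0.81). The first call was lost when control library 1 or 2 or no stereotypy library 1 or 2 was left out, as well as when replicate 3 was dropped from both TrkB-deleted groups (limma adjusted p = 0.051 to 0.12), with log2 differences between 0.39 and 0.47. It was also lost with a covariate for glial and vascular markers (log2 difference 0.40, adjusted p = 0.086) and in the fit to the 6 libraries compared (0.43, adjusted p = 0.069).

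Eif4g3 encodes a form of eIF4G, the scaffold that joins the cap-binding protein, the helicase and the ribosome. It lies on chromosome 4 from 137993022 to 138208508 (plus strand, GRCm38). Its level was 253.3, 272.9 and 243.7 CPM with stereotypy, 289.5, 267.1 and 298.0 CPM without it and 221.5, 205.9 and 239.3 CPM in controls. All 6 TrkB-deleted libraries lay above all 3 controls. The log2 difference from control was 0.36 ± 0.09 without stereotypy (SE, limma adjusted p = 0.035) and 0.21 ± 0.09 with stereotypy (adjusted p = 0.18), and that between the TrkB-deleted groups was -0.15 ± 0.09 (adjusted p = 0.28). The call was lost in 13 of 22 alternatives, among them edgeR (adjusted p = 0.056) and the fit without replicate 3 of both TrkB-deleted groups (limma adjusted p = 0.097), where its log2 difference was 0.32. Leaving out control 1 or 2, stereotypy 1 or 2, or any library without stereotypy also ended it (limma adjusted p = 0.053 to 0.13).

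**Figure D2:**
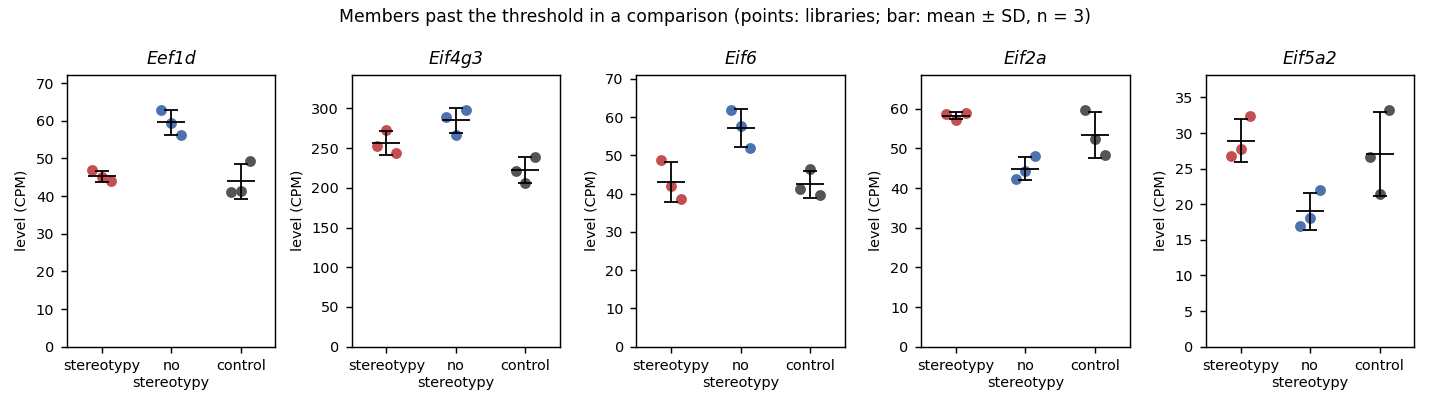
CPM of the 5 members past the threshold in a comparison, by group, with each library as a point and the mean ± SD of 3 libraries as a bar. Eef1d and Eif6 are highest in the libraries without stereotypy (56.4 to 62.9 and 52.0 to 61.9 CPM), Eif2a and Eif5a2 are lower there than in stereotypy libraries, and Eif4g3 is above all controls in both TrkB-deleted groups.

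Between the TrkB-deleted groups 4 of 63 members passed (6.35%, against 10.2% of all genes): with stereotypy Eif2a and Eif5a2 were higher and Eef1d and Eif6 lower. Of all genes 6.61% were called higher and 3.6% lower. By edgeR 4 members passed, and by DESeq2 8, against 1335 and 2343 of all 13695 genes. At an unadjusted p under 0.05 limma gave 14 members (22.2%), against 29.9% of all genes. The members' median change was -0.02 on the log2 scale, against 0.02 over all genes, and the groups' libraries did not overlap for 26 members, that is 10 higher and 16 lower (41.3%, against 38.3% of all genes, with 20.8% higher and 17.5% lower). For Eef1d the log2 difference was -0.39 ± 0.10 (SE, limma adjusted p = 0.036). This rests on the same 3 libraries without stereotypy as its difference from control. Eif6 encodes a factor that keeps ribosomal subunits apart until the large subunit is mature (chromosome 2, 155819832 to 155826925, minus strand, GRCm38). It was at 48.8, 42.1 and 38.5 CPM with stereotypy, at 61.9, 57.8 and 52.0 CPM without it and at 41.2, 46.4 and 39.7 CPM in controls, so the libraries without stereotypy again lay above the 6 others. Its log2 difference was -0.40 ± 0.11 between the TrkB-deleted groups (SE, limma adjusted p = 0.0495), and 0.42 ± 0.11 without stereotypy against control (adjusted p = 0.052).

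Eif2a encodes a protein that can bring the initiator tRNA to the ribosome without GTP and is distinct from the eIF2 complex (chromosome 3, 58525821 to 58557501, plus strand, GRCm38). Its level was 58.7, 57.2 and 59.0 CPM with stereotypy, 42.3, 44.3 and 48.2 CPM without it and 59.7, 52.3 and 48.3 CPM in controls. Stereotypy libraries lay above all libraries without stereotypy and overlapped the controls. The log2 difference between the TrkB-deleted groups was 0.37 ± 0.10 (SE, limma adjusted p = 0.042). Eif5a2 is a paralog of Eif5a (chromosome 3, 28781276 to 28798846, plus strand, GRCm38). It was at 26.7, 27.7 and 32.4 CPM with stereotypy, at 17.0, 18.0 and 22.0 CPM without it and at 26.6, 21.4 and 33.2 CPM in controls, and the stereotypy libraries again lay above those without stereotypy. The log2 difference was 0.58 ± 0.16 (SE, limma adjusted p = 0.045), the largest among the members in this comparison. Next to these, Eif3e, a subunit of eIF3, was at 25.4, 29.8 and 26.4 CPM with stereotypy and 17.7, 20.9 and 21.1 CPM without it, just outside the threshold (log2 difference 0.43 ± 0.13, SE, limma adjusted p = 0.053).

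These 4 calls were lost when libraries were left out. Without replicate 3 of both TrkB-deleted groups none of the 4 passed, with log2 differences of 0.41 for Eif2a, 0.61 for Eif5a2, -0.41 for Eef1d and -0.39 for Eif6 (limma adjusted p = 0.12 to 0.13), and no gene of the whole table passed. None of the 4 passed either without stereotypy library 2 or 3 or without no stereotypy library 1 or 2, where 1, 0, 0 and 0 genes of the whole table were called. The calls of Eef1d, Eif2a and Eif5a2 were also lost without stereotypy library 1, and those of Eif6 and Eif5a2 without control library 1. Without control library 2, which adds only to the estimate of the spread, 7 members passed, the others being Eif3e, Eif4a2 and Eif4h.

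The difference between the TrkB-deleted groups also moved with the GC content of the transcripts. Across the 63 members the log2 change had a Spearman correlation of -0.73 with the GC content of the longest transcript, and across 13655 genes of the table one of -0.57. The correlation was 0.54 over the members and 0.32 over all genes for no stereotypy against control, and -0.34 and -0.31 for stereotypy against control. These are descriptions of genes that share the same libraries, not of independent points. Of the 34 members under 50% GC, 23 were higher with stereotypy, with a median log2 change of 0.12, and of the 29 members at 50% or more 22 were lower, with a median of -0.16. Eif2a and Eif5a2 have 40.0% and 38.8% GC, Eif6 has 57.9% and Eef1d 48.0%, and the median over tested genes was 49.7%. These values, also used for the removal below, are from the longest transcript of any type, coding or not. For Eif2a that transcript has 3432 bases, against 2299 bases for its longest protein-coding one. When each library was freed of its smooth dependence on GC content and transcript length, no member passed and 8 genes of the table did. The log2 changes were then 0.09 for Eif2a, 0.21 for Eif5a2 and -0.15 for Eif6 (limma adjusted p = 0.59, 0.35 and 0.30), while that of Eef1d was -0.39 (adjusted p = 0.089). Against control, the log2 change of Eef1d without stereotypy was still 0.43 (limma adjusted p = 0.023), that of Eif4g3 was 0.30 (adjusted p = 0.079), and Eif6, at 0.33, now passed (adjusted p = 0.028). The part of GC content in the differences was not tested beyond this removal, which would also take out biological changes that follow GC content.

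**Figure D3:**
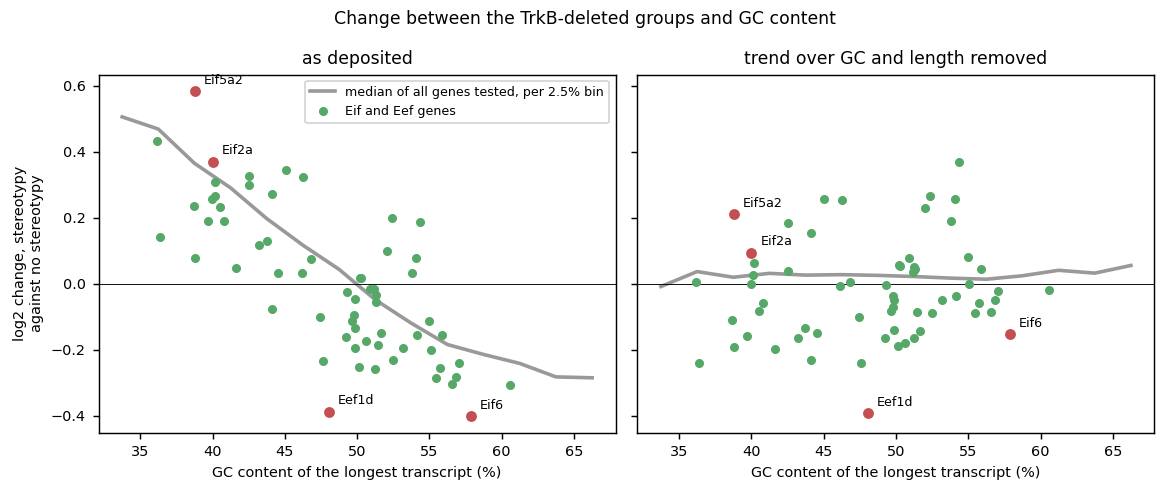
Log2 change of stereotypy against no stereotypy for 63 Eif and Eef genes (points; genes past the threshold in red and named) against the GC content of their longest transcript, as deposited (left) and after removal of the trend over GC content and length (right). The grey line is the median of all genes tested in bins of 2.5% GC; on the right Eif2a, Eif5a2 and Eif6 lie at 0.09, 0.21 and -0.15, and Eef1d stays at -0.39.

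Levels of several marker lists differed between these groups as well. Of the 11 astrocyte markers tested 3 were higher with stereotypy and none lower, and of 6 cortical excitatory markers 2 were lower and none higher, with the sums given above (6.61% of all genes were higher and 3.6% lower). Of 9 microglial markers 2 were higher, and their sum was 36.3 to 44.0 CPM with stereotypy and 20.8 to 28.8 CPM without it. Of 9 vascular markers 1 was higher, and of 8 D1 neuron markers 1 was higher. Of 12 oligodendrocyte markers none passed, and 6 had positive and 6 negative log2 differences. Their sum was 1213 to 2168 CPM with stereotypy, 783 to 1796 CPM without it and 597 to 1246 CPM in controls. Against control, all 12 had positive log2 differences in both TrkB-deleted groups, with medians of 0.63 with stereotypy and 0.53 without it. None of the 6 D2 neuron markers and 7 interneuron markers tested passed, but all had negative log2 differences, with medians of -1.19 and -1.18. With a covariate for glial and vascular markers in the fit, none of the 4 members passed (limma adjusted p = 0.12 to 0.34), with log2 differences of 0.37 for Eif2a, 0.41 for Eif5a2, -0.45 for Eef1d and -0.35 for Eif6. The part of RNA from cortical, D2 and interneurons in the differences was not tested.

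In mice without stereotypy 9 of the 10 elongation factors were above control, as were 54.7% of all genes, and the median log2 change of the 10 was 0.24. Of the 10, 1 passed the test, Eef1d (6.77% of all genes did), and 5 had an unadjusted p under 0.05 (22.5% of all genes). Of these 5, Eef1d, Eef1a2, Eef2 and Eefsec were above control and Eif5a2 was below it, with a log2 difference of -0.48 ± 0.16 (SE, limma adjusted p = 0.11), the largest in size of the 10. With stereotypy 9 of the 10 were above control too, as were 58.3% of all genes. Their median log2 change was 0.12 there, and none passed. The summed level of the 10 genes was 4164 to 4417 CPM with stereotypy, 4593 to 5361 CPM without it and 3582 to 4321 CPM in controls. Eef1a2 made up about as much of these sums as all other elongation factors. It was at 2169, 2012 and 1948 CPM with stereotypy, at 2715, 2646 and 2246 CPM without it and at 2089, 1641 and 2011 CPM in controls. Its log2 difference from control without stereotypy was 0.41 ± 0.12 (SE, limma adjusted p = 0.066), and that between the TrkB-deleted groups was -0.31 ± 0.12 (adjusted p = 0.11), or -0.02 after the GC trend was removed. Eef2 was at 956, 1045 and 940 CPM with stereotypy, at 1196, 1221 and 1065 CPM without it and at 859, 787 and 1028 CPM in controls, a log2 difference from control of 0.39 ± 0.11 without stereotypy (SE, limma adjusted p = 0.062). These genes have 60.6% and 57.0% GC. After the GC trend was removed, their differences from control without stereotypy were 0.30 and 0.29 (limma adjusted p = 0.17 and 0.16). With stereotypy they were then 0.28 and 0.26 (limma adjusted p = 0.19 for both), against 0.10 and 0.14 before the removal. For both genes the libraries without stereotypy lay above those of the other groups, yet neither passed the test. The groups overlapped for Eef1a1, with 816 to 907 CPM with stereotypy, 807 to 1029 CPM without it and 737 to 847 CPM in controls.

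The ratio of Eef1a2 to Eef1a1 per exon length was 2.65 to 3.18 in stereotypy libraries, 3.08 to 3.54 in no stereotypy libraries and 2.55 to 3.39 in control libraries, so the groups overlapped. Eef1a1 shares 60.6% of its 50-base words with other genes, 37.1% with the pseudogene Gm13456 (233 to 319 CPM), while Eef1a2 shares none. Summed with Gm13456, Eef1a1 was at 1082 to 1204 CPM with stereotypy, 1081 to 1348 CPM without it and 992 to 1128 CPM in controls. The ratio leaves out reads listed under such copies, so its size is uncertain. Eef1g, the γ subunit of the exchange factor, was listed at 9.08 to 17.1 CPM in all libraries while its pseudogene copy Gm4366 was listed at 97.9 to 163 CPM. Their sum was 136 to 147 CPM with stereotypy, 143 to 175 CPM without it and 107 to 144 CPM in controls. Eef1b2, the third exchange subunit, was at 87.8 to 108 CPM throughout, and Eefsec, which delivers selenocysteine tRNA, at 16.7 to 24.9 CPM. Neither passed in any comparison.

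Among the 43 initiation factors tested, the 14 genes of eIF3, the large scaffold on the small subunit, had a median log2 change of -0.02 with stereotypy and 0.11 without it against control, and none passed. Eif3c and Eif3b, the members of eIF3 with the highest level per exon length, were at 174 to 219 and 158 to 198 CPM. Eif2s1, the α subunit that stress kinases phosphorylate, was at 34.7, 34.4 and 36.4 CPM with stereotypy, 30.3, 28.1 and 33.8 CPM without it and 32.7, 22.5 and 35.7 CPM in controls, and did not pass. The 5 eIF2B genes summed to 181 to 197 CPM with stereotypy, 198 to 229 CPM without it and 189 to 219 CPM in controls, and none passed. Of the 5 genes for start-site selection and scanning none passed, and their log2 changes lay between -0.19 and 0.26 over the 3 pairwise comparisons. Eif4e, the cap-binding protein, was at 54.1 to 75.5 CPM over all libraries. Eif4g1, the main scaffold, was at 352 to 410 CPM with stereotypy, 390 to 440 CPM without it and 340 to 389 CPM in controls (log2 difference from control 0.06 and 0.21 in the 2 TrkB-deleted groups, limma adjusted p = 0.73 and 0.20).

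Eif4a2, the helicase form that neurons use most, was at 944, 892 and 904 CPM with stereotypy, 738, 724 and 751 CPM without it and 893, 555 and 778 CPM in controls. Its stereotypy and no stereotypy libraries did not overlap, but the log2 difference of 0.31 ± 0.14 did not pass (SE, limma adjusted p = 0.18). For Eif4a1 the same groups did not overlap either, at 26.9 to 32.1 CPM with stereotypy and 21.6 to 24.9 CPM without it. Added to its pseudogene Eif4a-ps4, however, Eif4a1 came to 327 to 359 CPM with stereotypy, 298 to 359 CPM without it and 354 to 390 CPM in controls, and the TrkB-deleted groups overlapped.

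**Figure D4:**
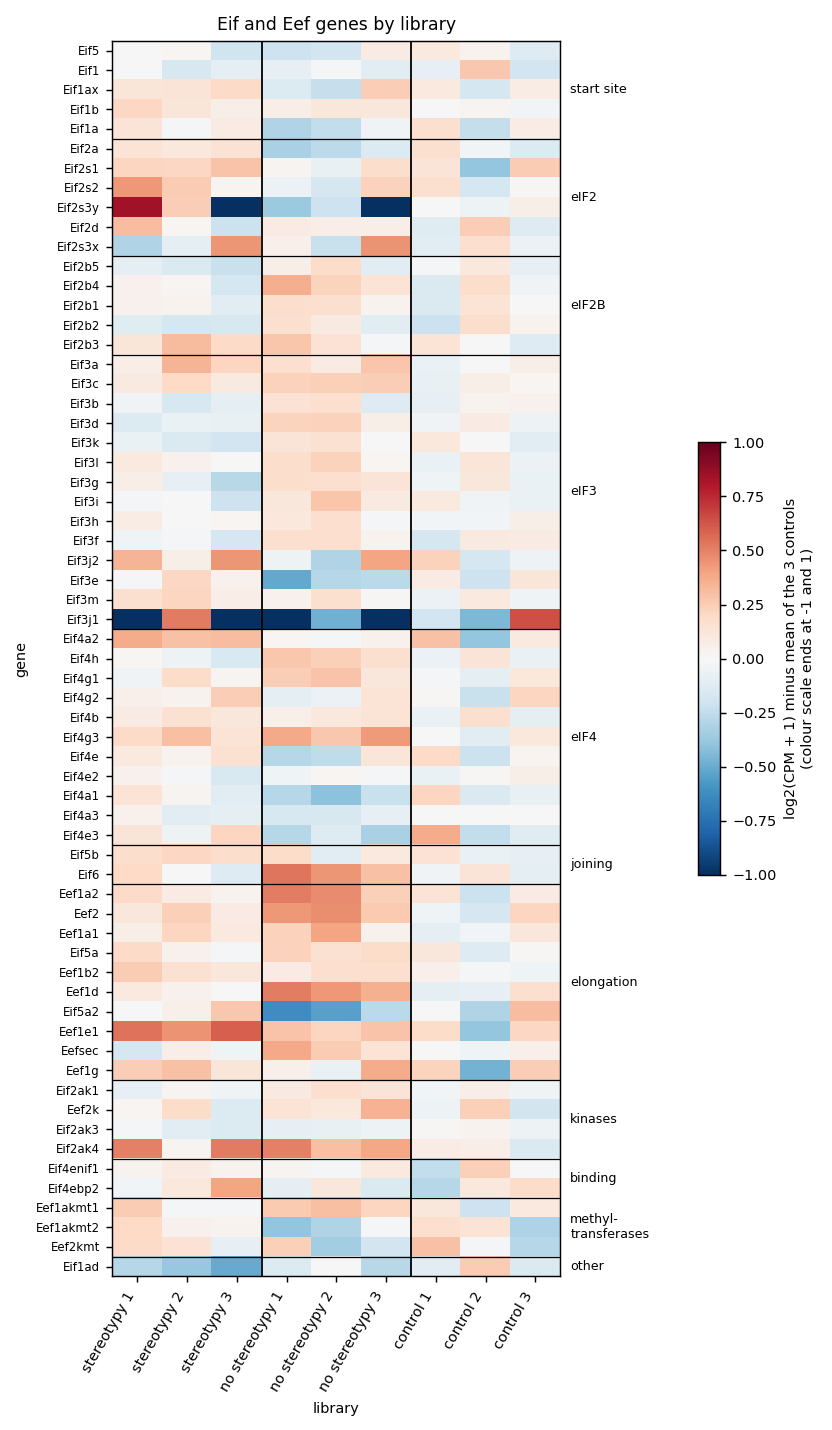
Log2(CPM + 1) of each tested member in each library minus its mean over the 3 controls, with genes in rows by role and libraries in columns by group; colours end at -1 and 1. Most members are pale in all libraries, and the libraries without stereotypy are red for Eef1d, Eif6, Eef1a2 and Eef2. In both TrkB-deleted groups Eif2s3y is dark blue in replicate 3 and Eif3j1 in replicates 1 and 3.

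The members that varied most did so between replicates of the same group, in both TrkB-deleted groups. Eif2s3y and Eif2s3x are the Y and X copies of the γ subunit of eIF2, the subunit that binds GTP and the initiator tRNA. Eif2s3y was at 37.7, 24.6 and 0.332 CPM with stereotypy, 15.7, 17.7 and 2.14 CPM without it and 20.5, 19.8 and 21.5 CPM in controls. The low values fell in replicate 3 of both TrkB-deleted groups, the same pair of libraries that had the high Xist and the low Ddx3y. Its difference from control was -0.98 ± 1.06 on the log2 scale with stereotypy (SE, limma adjusted p = 0.61) and changed sign, to 0.54, without that pair (adjusted p = 0.14). Eif2s3x was at 4.87, 5.75 and 8.82 CPM with stereotypy, 6.49, 5.18 and 8.87 CPM without it and 5.72, 7.10 and 5.92 CPM in controls, so replicate 3 held the highest value of both TrkB-deleted groups. Gm2223, with which Eif2s3x shares 36.2% of its 50-base words, was also highest there, at 51.0 and 45.9 CPM, against 24.9 to 33.3 CPM in controls.

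**Figure D5:**
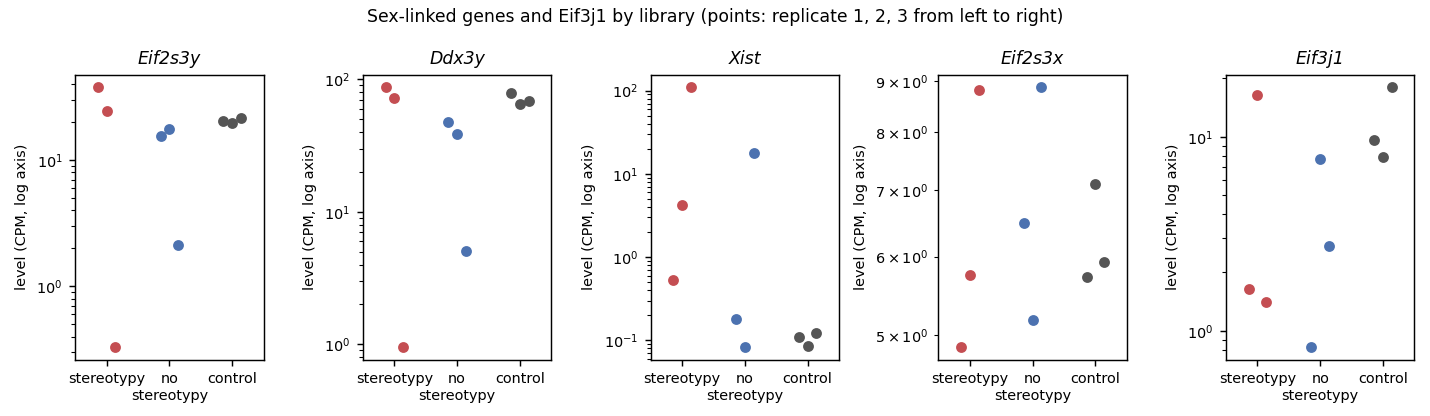
CPM (log axis) of Eif2s3y, Ddx3y, Xist, Eif2s3x and Eif3j1 in each library, by group, with replicates 1, 2 and 3 from left to right. Replicate 3 of both TrkB-deleted groups has low Eif2s3y (0.332 and 2.14 CPM), low Ddx3y and high Xist, while Eif3j1 is low in other libraries as well.

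Eif3j1 encodes eIF3j, a loosely bound subunit of eIF3, and Eif3j2 is a near-identical copy. Eif3j1 was at 1.65, 16.4 and 1.40 CPM with stereotypy, 0.827, 7.70 and 2.74 CPM without it and 9.58, 7.87 and 17.9 CPM in controls. Replicates 1 and 3 of both TrkB-deleted groups were below every control, while replicate 2 lay within the control range with stereotypy and just below it without. The log2 difference from control was -1.34 ± 0.73 with stereotypy and -1.63 ± 0.73 without it (SE, limma adjusted p = 0.29 and 0.21), and over both TrkB-deleted groups it passed once stereotypy library 2 was left out (log2 difference -1.95, adjusted p = 0.044). Eif3j2 shares 91.8% of its 50-base words with other genes, nearly all with Eif3j1, and was at 33.5, 27.3 and 35.9 CPM with stereotypy, 25.2, 21.1 and 34.8 CPM without it and 30.9, 23.1 and 25.3 CPM in controls. Summed, the pair was at 35.2 to 43.7 CPM with stereotypy, 26.1 to 37.6 CPM without it and 30.9 to 43.2 CPM in controls, and the groups overlapped.

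Of the kinases, none of the 4 tested passed. Eif2ak1, which senses heme, was highest at 78.9 to 94.0 CPM, and Eif2ak3 (PERK), which senses unfolded protein in the endoplasmic reticulum, was at 18.5 to 21.0 CPM in all 9 libraries, with an SD within groups at percentile 0.358 of all genes tested. Eif2ak4 (GCN2), which senses uncharged tRNA, was at 17.4, 12.3 and 17.6 CPM with stereotypy, 17.4, 15.0 and 15.9 CPM without it and 12.7, 12.6 and 10.8 CPM in controls. Only stereotypy library 2 fell within the control range, and the log2 differences from control were 0.35 ± 0.15 and 0.40 ± 0.15 in the 2 TrkB-deleted groups (SE, limma adjusted p = 0.19 and 0.15). Eif2ak2 (PKR), which senses double-stranded RNA, stayed under 1 CPM in every library. Eef2k was at 21.0 to 30.7 CPM, with log2 differences from control of 0.02 and 0.20 (limma adjusted p = 0.94 and 0.44).

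Of the 4 binding proteins 2 were tested. Eif4ebp2, the eIF4E-binding protein that predominates in brain, was at 7.98, 8.90 and 11.1 CPM with stereotypy, 7.60, 8.93 and 7.29 CPM without it and 6.51, 8.86 and 9.44 CPM in controls, while Eif4ebp1 reached at most 0.643 CPM. Eif4ebp3 was at 0.43, 0.0964 and 0.369 CPM with stereotypy, 0.0517, 0.028 and 0.148 CPM without it and 0.0821, 0.0849 and 0 CPM in controls, where 3 reads are 0.0739 to 0.111 CPM, and 65.5% of its 50-base words are shared with AC115631.1. Eif4enif1, which carries eIF4E into the nucleus, was at 38.7 to 54.6 CPM. Neither Eif4ebp2 nor Eif4enif1 passed in any comparison. The methyltransferases of eEF1A and eEF2 were at 24.2 to 34.7 CPM for Eef1akmt1 and 10.9 to 17.0 CPM for Eef1akmt2, and none passed.

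With both TrkB-deleted groups set together against control, no member passed by limma (5.72% of all genes did), none by edgeR and 1, Eif4g3, by DESeq2. Of all 13695 genes edgeR called 729 and DESeq2 1326. At an unadjusted p under 0.05 limma gave 12 of 63 members, against 20.4% of all genes. Eif4g3 came nearest, with a log2 difference of 0.28 ± 0.08 (SE, limma adjusted p = 0.055). Eef2 passed once control library 3 was left out.

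Other genes of the pathway were read from 5 lists of 51 genes, of which 50 were tested. They cover termination and recycling, the kinases and mTOR components that act on the factors, phosphatases and stress targets of eIF2, modifying enzymes and partners of the factors, and mitochondrial translation. Against control, 1 was higher and 1 lower with stereotypy, and 4 were higher and 1 lower without it, which is 4% and 10% of those tested, against 5.1% and 6.77% of all genes. Between the TrkB-deleted groups 2 were higher and 3 lower with stereotypy (10%, against 10.2% of all genes). Over both TrkB-deleted groups against control 2 were higher, Trib3 and Dhx29 (4%, against 5.72% of all genes). Trib3 and Atf5, targets of the eIF2 stress response, were higher without stereotypy than in controls, at 3.70, 2.27 and 3.75 CPM against 1.23, 1.50 and 0.705 CPM for Trib3 and at 15.3, 15.8 and 18.5 CPM against 9.61, 10.8 and 9.75 CPM for Atf5. Their log2 differences were 0.98 ± 0.21 and 0.66 ± 0.16 (SE, limma adjusted p = 0.022 and 0.036). They were the only 2 to pass of the 10 tested phosphatases and stress targets of eIF2. Of these 10, 6 were above control and 4 below, with a median log2 change of 0.12. Their summed level was 542 to 678 CPM without stereotypy and 607 to 640 CPM in controls. Dhx29, a helicase that helps scanning through structured leaders, was higher without stereotypy than in controls by 0.44 ± 0.12 (SE, limma adjusted p = 0.048).

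Rptor, the subunit of mTOR complex 1 that recruits its substrates, was at 71.3, 73.6 and 68.4 CPM with stereotypy, 93.7, 95.1 and 91.7 CPM without it and 64.0, 71.7 and 79.5 CPM in controls. The libraries without stereotypy were above the 6 others, as for Eef1d and Eif6, with a log2 difference of 0.38 ± 0.09 from control and -0.39 ± 0.09 between the TrkB-deleted groups (SE, limma adjusted p = 0.034 and 0.031). Sesn2, an inhibitor of mTOR complex 1 that stress induces, was lower with stereotypy than without it, by -0.63 ± 0.14 (SE, limma adjusted p = 0.026). Dohh, which completes the hypusine that eIF5A needs, was at 54.9, 55.4 and 43.2 CPM with stereotypy, 72.4, 72.3 and 65.5 CPM without it and 67.8, 79.0 and 66.9 CPM in controls, and its stereotypy libraries lay below the 6 others (log2 difference -0.47 ± 0.12 from control and -0.45 ± 0.12 from no stereotypy, SE, limma adjusted p = 0.041 and 0.036). Dph6, an enzyme of the diphthamide that marks eEF2, was lower without stereotypy than in controls (log2 difference -0.34 ± 0.09, adjusted p = 0.0498) and higher with stereotypy than without it (0.40 ± 0.09, adjusted p = 0.028; SE, limma). Guf1, a mitochondrial elongation factor, was at 32.1, 31.1 and 29.3 CPM with stereotypy, 16.2, 17.6 and 19.0 CPM without it and 23.6, 15.0 and 17.1 CPM in controls, and its stereotypy libraries lay above the 6 others (log2 difference 0.72 ± 0.15 from control and 0.78 ± 0.15 from no stereotypy, SE, limma adjusted p = 0.027 and 0.022). With the third replicate of each TrkB-deleted group left out, 0 of 2 calls remained between stereotypy and control. Then 1 of 5 (Atf5) remained between no stereotypy and control, and 0 of 5 between the TrkB-deleted groups. Over both TrkB-deleted groups against control 0 of 2 remained (Trib3 and Dhx29, limma adjusted p = 0.11 and 0.063), while both passed after removal of the GC and length trend. None of these calls held through every fit that left out 1 library. The log2 differences without that pair of libraries were close to those in all 9 for Guf1 (0.76 from control and 0.87 from no stereotypy), Rptor (0.40 from control and -0.38 between the TrkB-deleted groups) and Dph6 (-0.34 and 0.41 in the same order). They were smaller in size for Sesn2 (-0.49) and for Dohh (-0.36 from control and -0.38 from no stereotypy). After removal of the GC and length trend, Trib3 and Dhx29 still passed against control without stereotypy (log2 differences 0.88 and 0.43, limma adjusted p = 0.043 for both). Neither call between stereotypy and control did, and none of the 5 between the TrkB-deleted groups. The log2 differences between the TrkB-deleted groups were then -0.04 for Dph6, -0.15 for Dohh, 0.32 for Guf1, -0.23 for Rptor and -0.38 for Sesn2.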

How the data were processed

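The authors deposited 1 table per library with CPM values for 47729 Ensembl gene identifiers. TopHat and the build GRCm38 are named in the submitters' processing notes. How reads were counted, with which annotation, strand setting and treatment of reads that match several places, is not given in the sources used here. Values above 0 were whole multiples of 1 read in every library (100% within 0.1 reads), so whole reads were recovered. GENCODE M21 (GRCm38) named 47310 identifiers (99.12%). The 13695 genes that reached 1 CPM in 3 or more libraries were tested. limma 3.58.1 (R 4.3.3) was fitted to log2(CPM + 1) in all 9 libraries, with 3 group means, trended variance and 6 residual degrees of freedom; the added 1 understates the change of low genes. The Benjamini-Hochberg adjustment ran over all genes tested, with a threshold of 0.05. edgeR 4.0.16 (quasi-likelihood) and DESeq2 1.42.0 were run on the recovered reads. limma and edgeR were checked on simulated reads for stereotypy against no stereotypy. DESeq2, the other comparisons and the alternative fits were not checked in this way. The simulated reads had the same extra spread beyond counting error for every gene. They had no trend over GC content and no shift in cell markers, so the check does not cover these.

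The members, role lists and pathway lists were chosen with earlier results of these data known. Genes given with full values were drawn from those past the threshold, the 3 largest rises and falls per comparison with a mean of at least 5 CPM, the 2 most abundant per role and a set kept for their roles. Of the 2 most abundant per role, Eif1, Eif1b, Eif2b4, Eif2b5 and Eif5b are not given singly, and Eif4h only by its mean. Other genes given, such as Eif3j2, Eef1g, Eefsec or Eif4a1 and its copy, were picked after their values were seen. Alternatives were pseudocounts of 0.25 and 4, no filter or a mean of 5 CPM as the filter, rescaling by median of ratios, a replicate block, a glial and vascular covariate, leaving out each library and fits to the groups compared. Added after seeing the data were leaving out replicate 3 of both TrkB-deleted groups, summing 16 members with a pseudogene copy, and removing what a smooth curve over GC content and length predicts in each library. The 3-read floor covers counting error only, while the standard errors come from the spread between libraries within groups.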

Additional observations from a re-analysis of the deposited data

Results flagged for a closer look

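A difference between the TrkB-deleted groups, by the test of the difference itself, singled out 4 members. On the log2 scale Eif2a was higher with stereotypy by 0.37 and Eif5a2 by 0.58, with all 3 stereotypy libraries above all 3 without stereotypy, and Eef1d and Eif6 differed by -0.39 and -0.40, with all 3 below. After removal of the trend over GC content and length the values were 0.09, 0.21, -0.39 and -0.15.

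Xist, which belongs to no comparison above, was over the control maximum of 0.123 CPM in 5 TrkB-deleted libraries: 0.537, 4.21 and 109 CPM in stereotypy libraries 1, 2 and 3, and 0.181 and 17.9 CPM in no stereotypy libraries 1 and 3. The Y-linked Kdm5d was at 0.44 and 1.33 CPM in replicate 3 of the stereotypy and no stereotypy groups, against 11.9 to 13.2 CPM in controls.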

How the results depend on the processing

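Of 544 gene values under alternatives, 458 kept direction and side of the threshold, 61 lost the call, 22 gained one and 3 changed sign. All 3 were Eif2s3y against control: with stereotypy, -1.89 to 0.54 with 1 library left out, the highest without stereotypy library 3, and 0.54 with stereotypy and 0.13 over both TrkB-deleted groups without replicate 3 of both; the low level in those libraries is what the alternative leaves out. The counts of members called moved as follows. Between stereotypy and control, 1 passed with the replicate block and 2 by DESeq2, against 0. Between no stereotypy and control, against 2, the count was 1 with no filter, 4 with a mean of at least 5 CPM, 4 with the replicate block, 0 with the glial and vascular covariate, 0 without replicate 3 of both TrkB-deleted groups, 0 with the 2 groups only, 1 by edgeR, 7 by DESeq2 and 0 to 3 with 1 library left out. Between the TrkB-deleted groups, against 4, it was 0 with no filter, 0 with the covariate, 0 without that replicate pair, 0 after the GC and length trend was removed, 7 with the 2 groups only, 8 by DESeq2 and 0 to 7 with 1 library left out. Over both TrkB-deleted groups against control, against 0, it was 1 after the trend was removed (Eif6), 1 by DESeq2 and 0 to 1 with 1 library left out. The cause of these moves was not tested.

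Same-numbered libraries of different groups correlated between -0.08 and 0.41 in their deviations from group means. Libraries with different numbers correlated between -0.42 and 0.25. Whether equal numbers mark a pairing cannot be told from these values. With the replicate block 4 members passed between the TrkB-deleted groups, again Eef1d, Eif2a, Eif5a2 and Eif6. Their calls there were lost in 9, 10, 11 and 11 of 22 alternatives; besides those named in the report, Eef1d, Eif2a, Eif5a2 and Eif6 lost theirs with no filter, Eif2a and Eif5a2 under median-of-ratios rescaling and Eif6 under both pseudocounts (adjusted p = 0.0501 and 0.0502). Summing members with a pseudogene copy left the 4 counts of members called at 0, 2, 4 and 0. With 3 libraries a group, the standard errors of the members' log2 differences ran from 0.08 to 1.06, and a p above the threshold does not show that levels were equal.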
